A study of Mus musculus with 15 samples.

Results

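The comparison set 2 motor pools of the medial division of the lateral motor column against 3 pools of its lateral division in wild-type mice at postnatal day 6. A motor pool is the group of motor neurons that innervates 1 muscle or muscle group. The medial pools innervate muscles of ventral origin, the calf's gastrocnemius (GS) and the intrinsic muscles of the foot (IF), and gave 6 libraries. The lateral pools innervate muscles of dorsal origin, namely tibialis anterior (TA), extensor digitorum longus (EDL) and peroneus longus (PL), and gave 9 libraries. These 15 libraries, 3 for each of the 5 pools, are all the libraries of the series. The labels name the muscle of each library but not the division of the column, which was taken from the textbook position of each pool. The divisions were set with earlier results of these data known. All mice carried the same genotype and treatment. Each had a fluorescent tracer, the cholera toxin B subunit, injected into 1 muscle or muscle group at postnatal day 4, and labelled motor neurons were cut by laser from sections of the cord taken 2 days later. The labels give 30 to 40 captured cells for each library, drawn from a pool of 2 to 5 mice. Nothing ties a library to its animals, and whether libraries shared animals is not known, so the p-values below measure the spread between these pooled libraries. RNA of cells lying beside a captured neuron can enter its library.

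A motor neuron of the limb is placed along the cord by its Hox genes and then sorted into one division of the lateral motor column. In the embryo, medial neurons express the LIM homeodomain factor Isl1 and send axons to ventral muscles, while lateral neurons express Lhx1 and send axons to dorsal muscles. Eph receptors, ephrins, netrins and semaphorins steer that choice of path, and each division holds many pools that differ in adhesion molecules, channels and peptides.

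Levels are read counts scaled to library size, as CPM after TMM scaling. Total counts ran from 5488780 to 8258781 in medial and from 4417114 to 8488368 in lateral libraries. Medial libraries held a read for 13610 to 17321 genes (median 16533) and lateral libraries for 10548 to 15320 (median 13835). Of the tested genes, 0.732% to 10.6% were at 0 in a medial library and 4.0% to 29.2% in a lateral one, with PL 2 and PL 3 at 25.7% and 29.2%. Genes near 0 in lateral libraries are thus compared where fewer genes were detected, and the part of detection in those results was not tested. In pooled RNA, fewer cells that express a gene and less RNA per cell cannot be told apart.

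A gene was called at an adjusted p under 0.05, from edgeR's quasi-likelihood test with Benjamini-Hochberg adjustment over 14340 tested genes. The contrast was the mean of the GS and IF coefficients minus the mean of the TA, EDL and PL coefficients. It called 58 genes, or 0.404% of those tested, with 27 higher (0.188%) and 31 lower (0.216%) in the medial pools. limma voom, which moved the median of all genes upward, called 115 higher and 30 lower. At an unadjusted p under 0.05 there were 1492 genes. A called gene counted as shared when GS and IF each differed from the lateral pools in its direction at an unadjusted p under 0.05, and both medial pool means lay beyond all 3 lateral pool means. By that rule 38 genes (0.265% of those tested) were shared, 20 higher (0.139%) and 18 lower (0.126%), and they carry 37 symbols because Pou3f1 has 2 gene models with the same counts. In 17 of the 38 the 6 medial libraries did not overlap the 9 lateral ones, 9 of them higher and 8 lower. Over all tested genes 45 (0.314%) were separated in this way, 0.195% with medial libraries above and 0.119% with them below, and 28 of these were not called. The number of calls depended on single libraries: it was 22 without IF 1 and 600 without PL 1, and the shared genes numbered 15 and 324. Leaving out GS 1, GS 3, IF 2, IF 3, TA 1, TA 2, EDL 1, EDL 2 or EDL 3 gave 23 to 38 calls, each more than 1.5 times below 58.

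**Figure D1:**
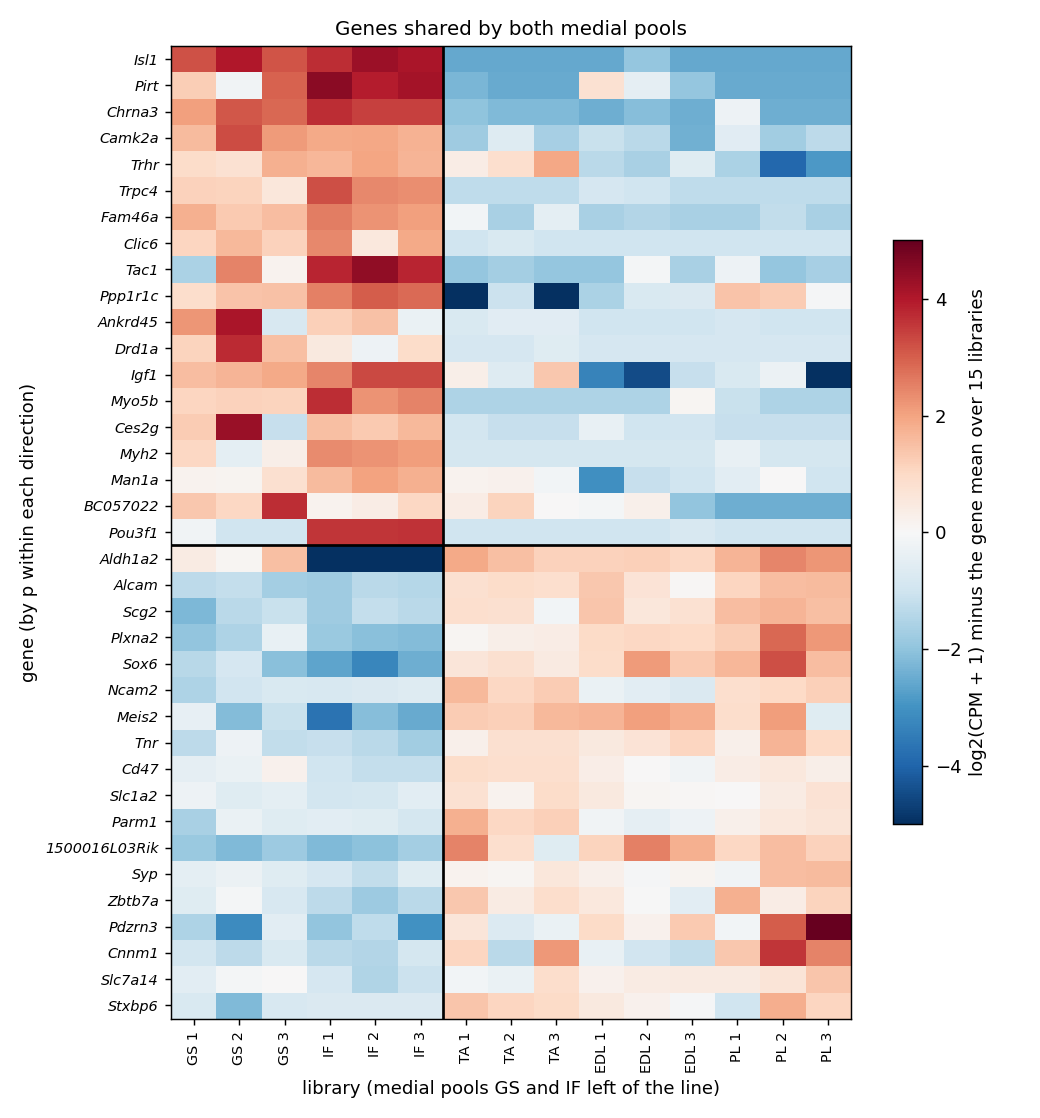
The 37 shared symbols (rows, by p within each direction) in 15 libraries (columns, medial pools GS and IF left of the vertical line), coloured by log2(CPM + 1) minus the gene's mean over 15 libraries, with colours saturated at the ends of the scale. Genes above the horizontal line were called higher in the medial pools and genes below it lower. Pou3f1 and Aldh1a2 stand out because GS and IF differ within the medial division.

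Promoter windows were read for the shared genes at the centre of the comparison, to give their sequence context. RefSeq windows of build GRCm38.p6, 250 bases before to 50 bases after the gene start and each 300 bases long, were matched for 31 shared genes, 13 higher and 18 lower. The windows were searched for TAATTA, a core bound by many homeodomain proteins, and for CTAATG, a sequence Isl1 is known to bind, both on either strand. TAATTA reads the same on both strands and was in 1436 of 27025 promoters (5.31%), in 2 of the 13 higher genes (Tac1 and Myh2) and in 0 of the 18 lower genes. CTAATG was in 2008 promoters (7.43%), in 1 of the 13 (Ankrd45) and in 0 of the 18. The sequences are on the strand of each gene: the defining medial gene Isl1 (chr13:116309639-116309938, minus strand), the shared lower gene with the smallest adjusted p among those separated in every library, Alcam (chr16:52453032-52453331, minus strand), the transcript that starts beside Lhx1 and is labelled Lhx1os in GENCODE (chr11:84525410-84525709, plus strand), and the peptide gene Tac1 (chr6:7554811-7555110, plus strand). Capitals mark the TAATTA match, which begins 100 bases before the Tac1 start.
Isl1: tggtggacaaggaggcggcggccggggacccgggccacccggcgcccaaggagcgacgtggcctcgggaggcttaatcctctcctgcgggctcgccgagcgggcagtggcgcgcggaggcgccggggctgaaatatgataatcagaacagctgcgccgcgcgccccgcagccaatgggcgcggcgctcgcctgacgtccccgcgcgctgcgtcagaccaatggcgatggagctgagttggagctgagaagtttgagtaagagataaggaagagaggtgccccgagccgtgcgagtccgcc
Alcam: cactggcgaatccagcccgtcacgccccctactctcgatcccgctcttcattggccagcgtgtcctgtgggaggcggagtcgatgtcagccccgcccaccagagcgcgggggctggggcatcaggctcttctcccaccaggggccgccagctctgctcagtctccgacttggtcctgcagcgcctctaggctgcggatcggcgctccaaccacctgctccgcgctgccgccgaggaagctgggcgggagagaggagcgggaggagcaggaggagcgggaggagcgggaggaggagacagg
Lhx1os: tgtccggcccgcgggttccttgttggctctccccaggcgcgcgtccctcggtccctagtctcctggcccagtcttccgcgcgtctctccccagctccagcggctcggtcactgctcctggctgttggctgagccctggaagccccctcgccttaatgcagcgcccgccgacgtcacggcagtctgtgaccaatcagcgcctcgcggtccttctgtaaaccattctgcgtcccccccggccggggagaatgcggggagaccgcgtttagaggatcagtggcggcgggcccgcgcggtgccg
Tac1: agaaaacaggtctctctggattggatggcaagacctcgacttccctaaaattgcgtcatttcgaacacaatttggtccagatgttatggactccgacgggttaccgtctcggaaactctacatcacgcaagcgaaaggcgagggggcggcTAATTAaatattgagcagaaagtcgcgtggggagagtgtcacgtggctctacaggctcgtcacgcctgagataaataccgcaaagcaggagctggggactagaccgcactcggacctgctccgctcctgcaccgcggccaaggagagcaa

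The 2 factors that define the divisions in the embryo were read first. Both genes and the pool divisions were chosen with earlier results known, so these values are not an independent check of the assignment. Isl1 (mm9 chr13:117088478-117099897) had 52.6, 94.1 and 51.4 CPM in GS and 76.1, 115 and 100.4 CPM in IF. It had 0 CPM in every TA and PL library and 0, 0.566 and 0 CPM in EDL. Thus every medial library lay far above every lateral one, and the 2 medial pools overlapped. There were 3588 medial reads against 5 lateral reads, or 979 times as many after scaling (95% counting interval 419 to 3017; edgeR adjusted p = 2.02e-05). Lhx1 (mm9 chr11:84331479-84338924) had 0, 0 and 0 CPM in GS and 0.713, 0 and 2.17 CPM in IF, against 5.43, 9.57 and 0 CPM in TA, 2.2, 21.8 and 15.1 CPM in EDL and 16.4, 361 and 0.221 CPM in PL. It was at or near 0 in the medial pools, and most lateral reads came from PL 2, while TA 3 and PL 3 were near 0 too. With 22 medial and 1698 lateral reads Lhx1 was not called (edgeR adjusted p = 0.0794). The libraries matched their divisions for Isl1 without exception and for Lhx1 in most.

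Beside Lhx1 lies 1500016L03Rik, a transcript of the opposite strand that GENCODE M21 names Lhx1os. It was picked out after its values were seen. On mm9 it spans chr11:84339162-84349334 on the plus strand and lies 237 bases from Lhx1, whose model lies on the minus strand, so the models do not overlap. It had 0.292, 0 and 0.326 CPM in GS and 0, 0.125 and 0.434 CPM in IF, against 24.9, 7.4 and 2.11 CPM in TA, 9.04, 26.1 and 15.2 CPM in EDL and 8.56, 12.8 and 9.27 CPM in PL. All 6 medial libraries lay below all 9 lateral ones. There were 8 medial and 791 lateral reads, a log2 difference of -5.89 ± 1.08 (SE; edgeR adjusted p = 0.0159). The call was lost without any 1 of the 3 GS libraries, IF 1 and IF 2 (edgeR adjusted p = 0.054 to 0.11). The libraries were not stranded, so reads running past an annotated end cannot be given to either gene.

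The transcription factors Sox6, Meis2 and Zbtb7a were lower in both medial pools. Sox6 (mm9 chr7:122614858-123182259), an SRY-box factor of neural and glial progenitors and of several neuron classes, had 19, 28.3 and 11.3 CPM in GS and 7.43, 4.5 and 8.68 CPM in IF. Its lateral levels were 78.9, 90.7 and 71.2 CPM in TA, 96.7, 229.9 and 128 CPM in EDL and 162, 492 and 151 CPM in PL. The divisions did not overlap, with a log2 difference of -3.68 ± 0.40 (SE; edgeR adjusted p = 5.47e-05). Against the same lateral pools the log2 difference was -2.93 ± 0.52 for GS and -4.43 ± 0.57 for IF, and the GS minus IF difference was not called (edgeR adjusted p = 0.771). Meis2, a homeodomain cofactor of Hox proteins, had 41.2, 11.2 and 24.5 CPM in GS and 3.36, 11.7 and 8.68 CPM in IF, against 133, 125 and 168 CPM in TA, 182, 232 and 194 CPM in EDL and 101, 236 and 35.7 CPM in PL. Only PL 3 reached into the medial range, and the log2 difference of -3.42 ± 0.46 (SE; edgeR adjusted p = 6.06e-04) was made up of -2.57 ± 0.59 for GS and -4.27 ± 0.66 for IF. Zbtb7a, a zinc finger repressor, had 17.2 to 59.2 CPM (median 30.6) in the medial libraries and 43.5 to 215 CPM (median 92.1) in the lateral ones, a log2 difference of -1.72 ± 0.34 (SE; edgeR adjusted p = 0.026). Against the lateral pools Zbtb7a gave -1.20 ± 0.44 for GS and -2.24 ± 0.47 for IF. Its call was lost without any 1 library other than TA 2, TA 3, EDL 3, PL 1, PL 2 and PL 3 (edgeR adjusted p = 0.054 to 0.166).

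Among the 49 tested members of a list of column and pool transcription factors, 2 were called higher and 2 lower. That is 8.16% of the list against 0.404% of all tested genes, the share that stands beside every list below. This list, like the others, was chosen with earlier results known. The median log2 difference was -0.34 against 0.02 over all tested genes (-0.0053 with genes of an empty pool at their ratio of pooled reads). The called members were Isl1, Pou3f1, Sox6 and Meis2. Pou3f1, a POU factor expressed by subsets of limb motor neurons, met the rule for shared genes but lay almost wholly in IF. It had 22.2, 22.7 and 23 CPM in IF and 0.731, 0 and 0 CPM in GS, and 1 read in all lateral libraries, in EDL 3, a ratio of pooled reads of 769.5 (95% counting interval 138 to 30449; edgeR adjusted p = 0.041). Its call was lost without any 1 library other than GS 2, PL 1, PL 2 and PL 3 (edgeR adjusted p = 0.0539 to 1.0). Foxp1, which marks limb motor neurons as a class and was named outside the rule, had 117, 219 and 143 CPM in GS and 187, 189 and 221 CPM in IF. The lateral pools were split: 136, 180.4 and 151 CPM in TA, 191, 39 and 135 CPM in PL and only 9.73, 15.4 and 23.6 CPM in EDL. Foxp1 was not called (edgeR adjusted p = 0.0581).

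**Figure D2:**
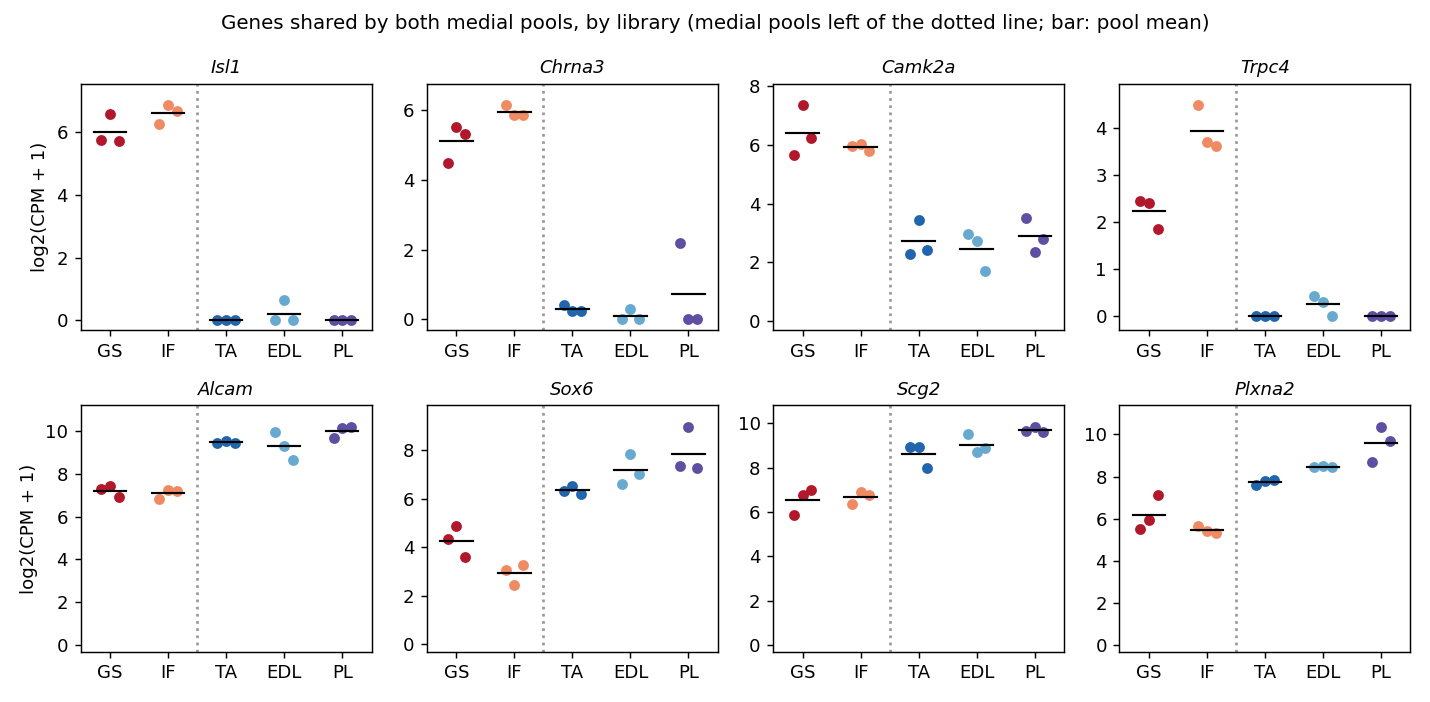
Each point is 1 library, as log2(CPM + 1), for 8 shared genes in the medial pools GS and IF (left of the dotted line) and the lateral pools TA, EDL and PL; the bar is the mean of 3 libraries. In all 8 genes the medial points lie apart from the lateral ones: Isl1, Chrna3, Camk2a and Trpc4 are higher and Alcam, Sox6, Scg2 and Plxna2 lower.

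The receptor subunit gene Chrna3 and the channel gene Trpc4 were higher in both medial pools. Chrna3 (mm9 chr9:54859150-54874367), the alpha-3 subunit of neuronal nicotinic acetylcholine receptors, had 21.6, 45.3 and 39.2 CPM in GS and 70.2, 57.7 and 57.4 CPM in IF. Lateral libraries were near 0, with 0.339, 0.181 and 0.176 CPM in TA, 0, 0.226 and 0 CPM in EDL and 3.57, 0 and 0 CPM in PL, so that only PL 1 stood above the rest. The log2 difference of 7.21 ± 0.90 (SE; edgeR adjusted p = 3.39e-04) rested on 2202 medial and 39 lateral reads. Chrna3 was the only called gene among 12 tested members of the acetylcholine synthesis and nicotinic receptor list, whose median log2 difference was 0.34. The synthetic enzyme Chat was not called (edgeR adjusted p = 0.238), with 80.3 to 156 CPM (median 110.1) in the medial libraries and 66.2 to 495 CPM (median 153) in the lateral ones. Trpc4, a calcium-permeable cation channel, had 4.39, 4.26 and 2.61 CPM in GS and 21.4, 12 and 11.1 CPM in IF, and no read in TA and PL. EDL held 0.348, 0.226 and 0 CPM. There were 454 medial reads against 5 lateral reads, or 124 times as many after scaling (95% counting interval 52.7 to 383; edgeR adjusted p = 0.00665).

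Trhr, Pirt and Drd1a were higher with less even levels. Trhr, the receptor for thyrotropin-releasing hormone, had 163, 147 and 299.5 CPM in GS and 274, 341 and 279.8 CPM in IF. TA overlapped them (111, 154 and 336 CPM), whereas EDL (33.4, 27.4 and 56.3 CPM) and PL (28.4, 4.79 and 11 CPM) lay below both. The log2 difference of 2.33 ± 0.35 (SE; edgeR adjusted p = 0.00276) was thus carried by EDL and PL on the lateral side. Trhr met the rule for sharing narrowly, as its GS mean of 203 CPM lay just above the TA mean of 200 CPM. Pirt, a membrane protein known as a regulator of TRP channels in sensory neurons, had 12.4, 4.09 and 43.3 CPM in GS and 132, 85.7 and 101 CPM in IF, against 0.17, 0 and 0 CPM in TA, 8.8, 3.17 and 0.502 CPM in EDL and 0 CPM in PL. Only GS 2 reached into the lateral range, below EDL 1. There were 3050 medial reads against 109 lateral reads, or 38.2 times as many after scaling (95% counting interval 31.5 to 46.7; edgeR adjusted p = 2.05e-04). Drd1a, the dopamine D1 receptor, was separated in every library but scarce, with 2.92, 23.3 and 4.08 CPM in GS and 1.53, 0.50 and 2.46 CPM in IF and 1 lateral read, in TA 3. That made 218 medial reads against 1 lateral read, or 297 times as many after scaling (95% counting interval 52.8 to 11802; edgeR adjusted p = 0.0215), and its call was lost without any 1 library other than GS 1, GS 3, PL 1, PL 2 and PL 3 (edgeR adjusted p = 0.0514 to 0.0765).

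Camk2a, Ppp1r1c and Igf1 were also higher. Camk2a (mm9 chr18:61085272-61147807), the alpha subunit of calcium/calmodulin-dependent kinase II, had 49.4, 163 and 73.9 CPM in GS and 61.7, 64.2 and 55.1 CPM in IF. In the lateral pools it had 3.9, 9.93 and 4.4 CPM in TA, 6.84, 5.66 and 2.26 CPM in EDL and 10.5, 4.15 and 5.96 CPM in PL. The divisions stood apart, GS 2 was the highest library, and the log2 difference of 3.68 ± 0.47 (SE; edgeR adjusted p = 3.55e-04) was made up of 4.01 ± 0.52 for GS and 3.35 ± 0.52 for IF. None of the 13 other tested calcium/calmodulin kinase genes was called, and the list's median log2 difference was -0.01. Ppp1r1c, a small inhibitor of protein phosphatase 1, had 131, 189.8 and 196 CPM in GS and 410.4, 578 and 506 CPM in IF, against 0.678, 32.9 and 0.879 CPM in TA, 22.8, 40.6 and 42.1 CPM in EDL and 191, 169 and 66.6 CPM in PL. PL reached the range of GS. The log2 difference of 2.92 ± 0.56 (SE; edgeR adjusted p = 0.0208) was lost as a call without any 1 of GS 3, IF 1, IF 2 and EDL 1 (edgeR adjusted p = 0.050 to 0.0671). Igf1, a growth factor that supports motor neurons and muscle, had 107 to 364 CPM (median 168) in the medial libraries and 0 to 92.9 CPM (median 21) in the lateral ones, without overlap. Its log2 difference of 3.45 ± 0.67 (SE; edgeR adjusted p = 0.0236) was lost as a call without any 1 of GS 1, GS 3, the 3 IF libraries, TA 1, TA 2 and EDL 1 (edgeR adjusted p = 0.0518 to 0.0736).

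Among genes of peptides and synaptic or secretory vesicles, Tac1 was higher and Scg2 and Syp were lower. Tac1, the precursor of substance P and neurokinin A, had 0.292, 20.4 and 3.43 CPM in GS and 53.7, 83 and 53.1 CPM in IF, against 0, 0.181 and 0 CPM in TA, 0, 2.6 and 0.251 CPM in EDL and 2.27, 0 and 0.221 CPM in PL. IF was evenly high, while GS 1 lay within the lateral range. The log2 difference was 4.29 ± 1.14 for GS and 7.26 ± 1.19 for IF, the GS minus IF difference of -2.97 ± 1.53 (SE; edgeR adjusted p = 1.0) was not called, and the call of the divisions was lost without any 1 of GS 2, IF 1, IF 2, the 3 TA libraries and EDL 3 (edgeR adjusted p = 0.0518 to 0.0743). Scg2, a granin of dense-core vesicles, had 57, 108 and 126 CPM in GS and 80.2, 119.7 and 107 CPM in IF. Lateral levels were 492, 479.8 and 252 CPM in TA, 730.2, 413 and 465 CPM in EDL and 813, 903 and 788 CPM in PL. No medial library reached the lowest lateral one, and the log2 difference of -2.51 ± 0.25 (SE; edgeR adjusted p = 2.26e-05) was made up of -2.55 ± 0.34 for GS and -2.47 ± 0.34 for IF. Syp, the synaptic vesicle protein synaptophysin, had 598 to 1149 CPM (median 923) in the medial libraries and 1269 to 4295 CPM (median 1586) in the lateral ones, a log2 difference of -1.20 ± 0.22 (SE; edgeR adjusted p = 0.0188). Its gene model overlaps a second one, Gm14703, that may share its reads, and its call was lost without any 1 of GS 1, GS 3, IF 1 and IF 2 (edgeR adjusted p = 0.060 to 0.0928).

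Alcam, Plxna2, Tnr, Ncam2 and Cd47 were lower in both medial pools. Alcam (mm9 chr16:52249109-52454188), an immunoglobulin adhesion molecule of growing axons, had 154, 168 and 118 CPM in GS and 111, 152 and 143 CPM in IF. In the lateral pools it had 682, 729.6 and 694 CPM in TA, 975, 621 and 398 CPM in EDL and 815, 1120.5 and 1147 CPM in PL. All 6 medial libraries lay below all 9 lateral ones, a log2 difference of -2.47 ± 0.22 (SE; edgeR adjusted p = 6.00e-06), with -2.41 ± 0.30 for GS and -2.53 ± 0.30 for IF. Plxna2, a plexin that transduces semaphorin signals, had 44.3, 59.8 and 139 CPM in GS and 49.1, 41.4 and 38.5 CPM in IF, against 192, 218 and 229.7 CPM in TA, 346, 364 and 355 CPM in EDL and 415, 1295 and 809.9 CPM in PL. GS 3 was the highest medial library and still below TA. The log2 difference was -2.76 ± 0.30 (SE; edgeR adjusted p = 5.47e-05).

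Tnr, the extracellular matrix protein tenascin-R, had 37.6, 77.6 and 39.3 CPM in GS and 42.2, 35.9 and 27.3 CPM in IF, against 113, 163 and 164 CPM in TA, 132, 149 and 199 CPM in EDL and 113, 309.8 and 187 CPM in PL. Its divisions did not overlap (log2 difference -1.98 ± 0.31, SE; edgeR adjusted p = 0.0038). Oligodendrocytes are also known to make Tnr, and their markers are given with the other cell types. Ncam2, a neural cell adhesion molecule, had 108, 163 and 190.2 CPM in GS and 183, 193 and 202 CPM in IF. TA (996, 660.2 and 777 CPM) and PL (569.8, 643 and 738 CPM) were well above these, whereas EDL (254, 222 and 195 CPM) overlapped them. The log2 difference of -1.51 ± 0.20 (SE; edgeR adjusted p = 4.25e-04) therefore came mainly from TA and PL. Cd47, a membrane protein that binds SIRP-alpha, had 365, 395 and 582 CPM in GS and 254, 222 and 221 CPM in IF. The lateral libraries held 449 to 944 CPM (median 651), so GS 3 overlapped them and IF did not. Between the divisions the log2 difference was -1.09 ± 0.17 (SE; edgeR adjusted p = 0.00488). It was larger for IF (-1.56 ± 0.24) than for GS (-0.62 ± 0.22), but the GS minus IF difference was not called (edgeR adjusted p = 0.412). A second Cd47 model overlaps the one counted.

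Of 34 tested immunoglobulin adhesion molecules, 1 was called higher (Negr1) and 3 lower (Alcam, Ncam2 and Lrrc4c), which is 11.8% of the list against 0.404% of all tested genes. The list was chosen with earlier results known, and 7 had a difference above 0, with a list median of -0.49. Plxna2 was the only called gene, or 3.45%, of 29 semaphorins, plexins and neuropilins (median -0.01, or -0.08 with genes of an empty pool at their ratio of pooled reads). None of 17 tested Eph receptors and ephrins was called (median 0.30), nor any of 17 netrin and slit genes (median 0.09), 6 GDNF family genes (median 0.05) or 11 protocadherins (median -0.25). Epha4 and Ephb1, receptors known to guide lateral and medial axons in the embryo, were looked up outside the naming rule. Epha4 had 119 to 298 CPM (median 208) in the medial libraries and 114 to 364 CPM (median 203) in the lateral ones, with a log2 difference of -0.01 ± 0.23 (SE; edgeR adjusted p = 1.0). Ephb1 had 10.7 to 118 CPM (median 13.3) in the medial libraries and 3.19 to 16.6 CPM (median 9.16) in the lateral ones, with a log2 difference of 1.38 ± 0.60 (SE; edgeR adjusted p = 0.413), and its highest library was GS 2. The netrin receptors with the smallest p were Unc5c (edgeR adjusted p = 0.362) and Unc5d (edgeR adjusted p = 0.368). Gfra3, a GDNF family co-receptor, had 3.22, 0 and 0 CPM in GS and 8.45, 14.4 and 16.2 CPM in IF and no lateral read. Its medial reads were at least 151 times the floor of 3 lateral counts over the group, yet it was not called (edgeR adjusted p = 0.0581).

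The remaining shared higher genes had few lateral reads. Fam46a, a non-canonical poly(A) polymerase, had 6.64 to 17.3 CPM (median 10.8) in the medial libraries and 0 to 1.87 CPM (median 0) in the lateral ones, a log2 difference of 5.92 ± 1.05 (SE; edgeR adjusted p = 0.0132), lost without IF 1 or IF 2 (edgeR adjusted p = 0.054 and 0.0515). Clic6, an intracellular chloride channel protein, had 1.87 to 9.37 CPM (median 4.27) in the medial libraries and 0 to 0.181 CPM (median 0) in the lateral ones. There were 224 medial reads against 1 lateral read, or 306 times as many after scaling (95% counting interval 54.3 to 12125; edgeR adjusted p = 0.0135). Its call was lost without IF 1 or IF 3 (edgeR adjusted p = 0.0657 and 0.0508). Myo5b, a myosin motor of vesicle transport, had 5.12 to 36.4 CPM (median 9.16) in the medial libraries and 0 to 2.13 CPM (median 0) in the lateral ones. There were 665 medial reads against 20 lateral reads, or 45.4 times as many after scaling (95% counting interval 29.1 to 74.8; edgeR adjusted p = 0.026). No library overlapped, and the Myo5b call was lost without any 1 library other than GS 2, EDL 3, PL 1, PL 2 and PL 3 (edgeR adjusted p = 0.0513 to 0.112).

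In the last of the shared higher genes the libraries overlapped between the divisions. Ankrd45, an ankyrin repeat protein, had 8.33, 33.2 and 0.163 CPM in GS and 3.56, 4.5 and 0.579 CPM in IF and at most 0.361 CPM in a lateral library, a ratio of pooled reads of 74.6 (95% counting interval 33.9 to 205; edgeR adjusted p = 0.0208). Ces2g, a carboxylesterase, had 4.24, 43.1 and 0 CPM in GS and 5.19, 4.5 and 5.79 CPM in IF and at most 0.695 CPM in a lateral library, a ratio of pooled reads of 62 (95% counting interval 32.3 to 137; edgeR adjusted p = 0.0287). In both genes GS 2 was the highest library and GS 3 was near or at 0. The Ankrd45 call was lost without any 1 library other than GS 1, GS 3, IF 3, PL 1, PL 2 and PL 3 (edgeR adjusted p = 0.0548 to 0.0845) and the Ces2g call without any 1 library other than GS 3, PL 1, PL 2 and PL 3 (edgeR adjusted p = 0.0525 to 0.121). Myh2, a myosin heavy chain of fast muscle fibres, had 2.78, 0.34 and 1.31 CPM in GS and 8.66, 7.87 and 6.94 CPM in IF. Lateral libraries held 0 to 0.433 CPM (median 0), a ratio of pooled reads of 76.8 (95% counting interval 29.6 to 284; edgeR adjusted p = 0.0292). Man1a, a Golgi mannosidase, had 50.1, 50.1 and 78.7 CPM in GS and 135, 183 and 155 CPM in IF. Lateral libraries held 4.4 to 51.8 CPM (median 30.9), and TA (50.2, 51.8 and 40.8 CPM) overlapped GS. The log2 difference of 1.75 ± 0.36 (SE; edgeR adjusted p = 0.036) was made up of 1.05 ± 0.44 for GS and 2.45 ± 0.42 for IF. The GS minus IF difference of Man1a was not called (edgeR adjusted p = 0.965). A clone, BC057022, had 5.19 to 70.4 CPM (median 10.2) in the medial libraries and 0 to 10.8 CPM (median 4.05) in the lateral ones, a ratio of pooled reads of 4.91 (95% counting interval 4.2 to 5.75; edgeR adjusted p = 0.0406), and PL held no read of it. These 3 genes were named after their values were seen. The Myh2 call was lost without any 1 library other than GS 2, PL 1 and PL 3 (edgeR adjusted p = 0.0547 to 0.117), that of Man1a without any 1 library other than EDL 1, EDL 3, PL 1, PL 2 and PL 3 (edgeR adjusted p = 0.0593 to 0.171), and that of BC057022 without any 1 library other than GS 2, PL 1, PL 2 and PL 3 (edgeR adjusted p = 0.0695 to 0.165).

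Of the remaining shared lower genes, Slc1a2, the glutamate transporter GLT-1 known chiefly from astrocytes, had 608 to 973 CPM (median 780.3) in the medial libraries and 1167 to 2200.0 CPM (median 1535) in the lateral ones, without overlap. The log2 difference of -1.03 ± 0.18 (SE; edgeR adjusted p = 0.00819) was lost as a call without IF 1 or IF 2 (edgeR adjusted p = 0.054 and 0.0574). Parm1, a mucin-like membrane protein, had 113 to 281 CPM (median 230.5) in the medial libraries and 261 to 1203 CPM (median 503) in the lateral ones, a log2 difference of -1.24 ± 0.22 (SE; edgeR adjusted p = 0.0132) lost without any 1 of the 3 IF libraries (edgeR adjusted p = 0.0532 to 0.0726). Pdzrn3, an E3 ubiquitin ligase, had 1.53 to 14.5 CPM (median 5.7) in the medial libraries and 13 to 2099 CPM (median 32.9) in the lateral ones, a log2 difference of -3.81 ± 0.77 (SE; edgeR adjusted p = 0.0292), and PL 3 alone gave the highest value. Cnnm1, a membrane protein of the cyclin M family, had 25.4 to 41.8 CPM (median 33.1) in the medial libraries and 27.6 to 872 CPM (median 152) in the lateral ones, a log2 difference of -2.18 ± 0.44 (SE; edgeR adjusted p = 0.0307). The Pdzrn3 call was lost without any 1 library other than EDL 2, PL 1 and PL 2 (edgeR adjusted p = 0.0504 to 0.132) and the Cnnm1 call without any 1 library other than TA 2, PL 1 and PL 3 (edgeR adjusted p = 0.0524 to 0.158). Slc7a14, an orphan amino acid transporter, had 148 to 427 CPM (median 261) in the medial libraries and 334 to 1101 CPM (median 575) in the lateral ones, a log2 difference of -1.14 ± 0.23 (SE; edgeR adjusted p = 0.0307). Against the lateral pools Slc7a14 gave -0.68 ± 0.30 for GS and -1.60 ± 0.31 for IF. Stxbp6, a SNARE-binding protein, had 20.8 to 60.5 CPM (median 59.4) in the medial libraries and 50.3 to 355 CPM (median 197) in the lateral ones, a log2 difference of -1.75 ± 0.37 (SE; edgeR adjusted p = 0.0406). Both were named after their values were seen, and the Slc7a14 call was lost without any 1 library other than TA 1, TA 2, PL 1, PL 2 and PL 3 (edgeR adjusted p = 0.0558 to 0.171) and the Stxbp6 call without any 1 library other than PL 1 or PL 3 (edgeR adjusted p = 0.050 to 0.171).

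Aldh1a2 had the smallest p of the comparison but was not even within the medial division. It encodes a dehydrogenase that makes retinoic acid in limb-level motor neurons. It had 226, 177 and 474 CPM in GS and 3.77, 4.37 and 1.45 CPM in IF, against 622, 479 and 379 CPM in TA, 371, 382 and 341 CPM in EDL and 545, 906 and 786 CPM in PL. IF was almost without it, while GS overlapped the lateral libraries. Against the lateral pools the log2 difference was -0.81 ± 0.34 for GS and -7.31 ± 0.51 for IF, and the GS minus IF difference of 6.50 ± 0.51 (SE; edgeR adjusted p = 2.10e-06) was the only one called among the 38 shared genes. Aldh1a2 was the only called gene of 15 tested retinoid genes, whose median log2 difference was 0.62, or 0.30 with genes of an empty pool at their ratio of pooled reads.

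The other 20 called genes did not meet the rule for sharing, and 17 of them were assigned to IF, 4 higher and 13 lower. A gene was assigned to a medial pool when that pool alone met both conditions of the rule. Such a gene need not differ between GS and IF. GS and IF were set against the same 9 lateral libraries, so their separate results are not independent. GS alone gave 22 calls against the lateral pools (0.153%), 15 higher and 7 lower. IF alone gave 132 (0.921%), 73 higher and 59 lower. Between GS and IF themselves 18 genes were called (0.126%), 10 higher in GS and 8 lower, whereas limma voom called 4 higher and 29 lower. In edgeR's test 639 genes had an unadjusted p under 0.05. The GS minus IF test was called for 8 of the 58 genes.

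Peptide genes were among these. Of 18 tested neuropeptide precursors, 2 were called higher (Sst and Tac1) and 2 lower (Nts and Calca). That is 22.2% of the list against 0.404% of all tested genes, and the list was chosen with earlier results known. The median log2 difference was 1.71, or 0.87 with genes of an empty pool at their ratio of pooled reads. Nts, the neurotensin precursor, had 28.1, 53.3 and 28.6 CPM in GS and 2.24, 5.12 and 4.48 CPM in IF, against 23.1, 30.2 and 45.2 CPM in TA, 599, 486 and 458 CPM in EDL and 214, 232 and 251 CPM in PL. Both medial pools lay far below EDL and PL, yet GS overlapped TA. Between the divisions there was a log2 difference of -3.71 ± 0.31 (SE; edgeR adjusted p = 2.40e-06), and within the medial one a GS minus IF difference of 3.21 ± 0.44 (SE; edgeR adjusted p = 0.00201). Calca, which encodes calcitonin gene-related peptide, had 93.7, 116 and 78.3 CPM in IF, below every other library, and 553, 737 and 575 CPM in GS, within the lateral range of 338 to 1455 CPM. The divisions gave a log2 difference of -1.59 ± 0.23 (SE; edgeR adjusted p = 0.00162), and the GS minus IF difference of 2.69 ± 0.36 (SE; edgeR adjusted p = 0.00185) was called. Sst, the somatostatin precursor, had 936, 2342 and 2005 CPM in GS and 287, 467 and 322 CPM in IF, while TA (897, 1089 and 779 CPM) exceeded IF, and EDL and PL lay at 47.3 to 154 CPM. The divisions gave a log2 difference of 2.12 ± 0.27 (SE; edgeR adjusted p = 3.52e-04) and the medial pools a GS minus IF difference of 2.29 ± 0.44 (SE; edgeR adjusted p = 0.0393).

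**Figure D3:**
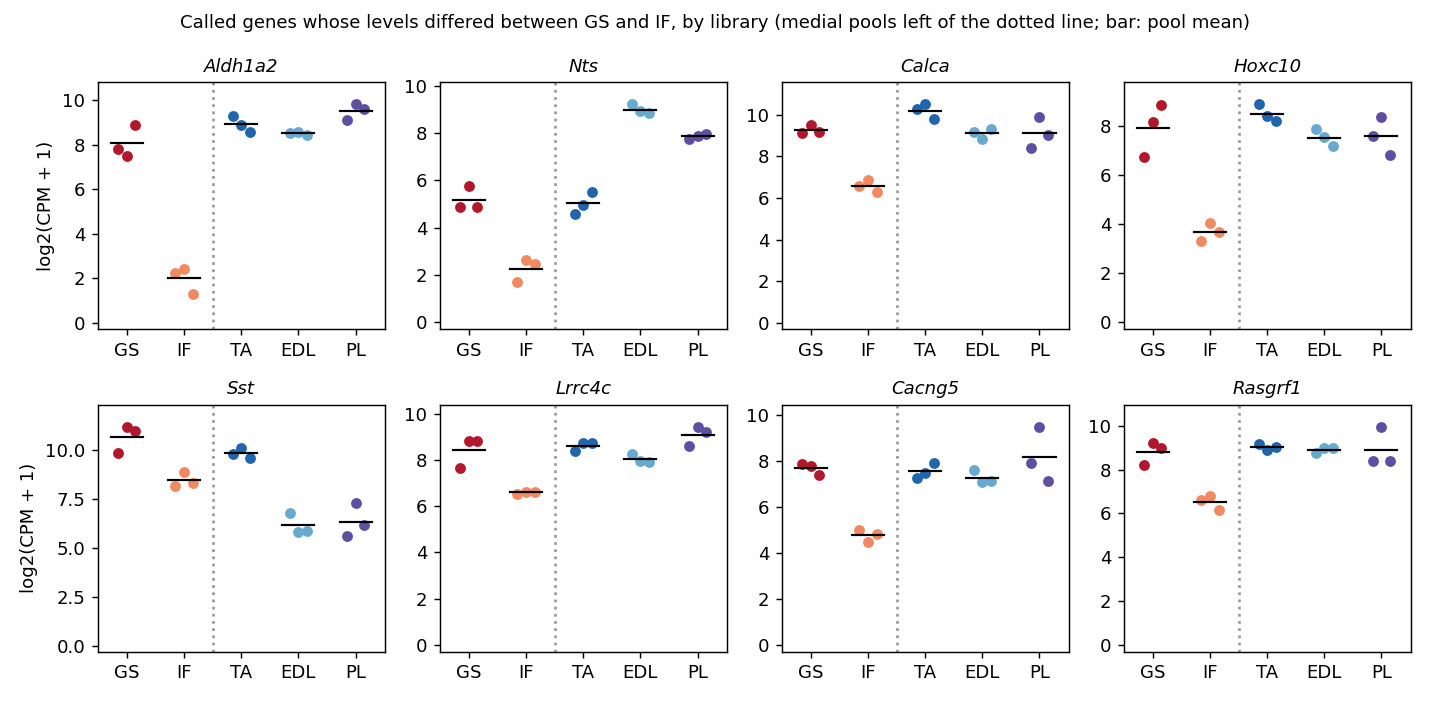
Each point is 1 library, as log2(CPM + 1), for the 8 called genes whose GS minus IF difference was also called, with the medial pools GS and IF left of the dotted line and bars at the mean of 3 libraries. IF lies below GS in all 8, and GS lies within or close to the lateral points in Calca, Hoxc10, Lrrc4c, Cacng5 and Rasgrf1.

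Hoxc10, a Hox gene of the lumbar cord, had 106, 283 and 464 CPM in GS and 8.86, 15.2 and 11.7 CPM in IF, against 110.3 to 475 CPM (median 231) in lateral libraries. It was low in IF alone, with a log2 difference of -2.07 ± 0.34 (SE; edgeR adjusted p = 0.00522) between the divisions and a GS minus IF difference of 4.57 ± 0.56 (SE; edgeR adjusted p = 0.00101), and was the only called gene of 30 tested Hox genes (median 0.16). Cacng5, an AMPA receptor auxiliary subunit, had 229.8, 219 and 169 CPM in GS and 31.2, 21.4 and 27.6 CPM in IF, and Lrrc4c, a netrin-G ligand at synapses, had 203, 449 and 450.2 CPM in GS and 92.4, 98.5 and 96.5 CPM in IF. Both overlapped the lateral range in GS and lay below it in IF. Between the divisions Cacng5 had a log2 difference of -1.58 ± 0.32 (SE; edgeR adjusted p = 0.0292) and Lrrc4c a log2 difference of -1.05 ± 0.22 (SE; edgeR adjusted p = 0.041), and the medial pools gave a GS minus IF difference of 2.94 ± 0.50 (SE; edgeR adjusted p = 0.0209) for Cacng5 and a GS minus IF difference of 1.94 ± 0.35 (SE; edgeR adjusted p = 0.0262) for Lrrc4c. The call of Cacng5 was lost without any 1 library other than PL 1, PL 2 and PL 3 (edgeR adjusted p = 0.0534 to 0.167), and Lrrc4c without any 1 library other than PL 1 or PL 3 (edgeR adjusted p = 0.0532 to 0.178). Rasgrf1, a Ras exchange factor, had 296, 590.2 and 500.0 CPM in GS and 96.1, 111 and 70.3 CPM in IF, with a GS minus IF difference of 2.32 ± 0.41 (SE; edgeR adjusted p = 0.0254); it was named after its values were seen, and the call between the divisions was lost without any 1 library other than GS 2, PL 1, PL 2 and PL 3 (edgeR adjusted p = 0.0553 to 0.144).

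Higher calls assigned to IF were Col8a1, Cpne4, Cdh12 and Negr1, and the first 2 were high in IF alone. Col8a1, a collagen chain, had 113, 202 and 149.6 CPM in IF and 1.02, 1.36 and 3.75 CPM in GS, against 0 to 50.9 CPM (median 0) in lateral libraries, where EDL 3 was the highest, a ratio of pooled reads of 11.6 (95% counting interval 10.5 to 12.8; edgeR adjusted p = 0.00522). Cpne4, a calcium-dependent phospholipid-binding protein, had 196, 234 and 223 CPM in IF and 5.12, 1.53 and 0.163 CPM in GS, against 0 to 5.2 CPM (median 0.339) in lateral libraries, a log2 difference of 4.80 ± 0.88 (SE; edgeR adjusted p = 0.0162). The GS minus IF difference was not called for either (edgeR adjusted p = 0.102 for Col8a1 and 0.152 for Cpne4). Cpne4 was named after its values were seen, and its call was lost without any 1 of GS 1, IF 1, IF 2 and TA 1 (edgeR adjusted p = 0.0518 to 0.0987). Cdh12, a cadherin and the only called one of 15 tested (median -0.42), had 138, 296 and 317 CPM in GS and 307, 384 and 329 CPM in IF. The GS minus IF difference of Cdh12 was not called, and its GS mean of 250 CPM lay just below the PL mean of 259 CPM. TA (20.01, 74.9 and 20.4 CPM) and EDL (41.8, 50.4 and 56.6 CPM) were lower, but PL (149.7, 303 and 323 CPM) was not, so that the divisions gave a log2 difference of 1.88 ± 0.31 (SE; edgeR adjusted p = 0.00639). Negr1, an adhesion molecule of the IgLON family, had 244, 435 and 480.1 CPM in GS and 655, 653 and 738 CPM in IF, with PL in the same range (464, 688 and 649 CPM) and a log2 difference of 1.01 ± 0.21 (SE; edgeR adjusted p = 0.041). Its call was lost without any 1 library other than GS 1, TA 3, EDL 1, PL 1, PL 2 and PL 3 (edgeR adjusted p = 0.0764 to 0.144).

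Lower calls assigned to IF included Glra1 and Arhgap36. Glra1, the adult glycine receptor alpha subunit, had 152, 343 and 271 CPM in GS and 95.1, 71.1 and 69 CPM in IF, against 197 to 1143 CPM (median 371) in lateral libraries. Arhgap36, a member of a family of GTPase-activating proteins, had 1258, 2035 and 2085 CPM in GS and 963, 906 and 882 CPM in IF, against 1895 to 2684 CPM (median 2353) in lateral libraries. In both genes the IF libraries lay below every lateral one and GS overlapped them, but the GS minus IF difference was not called (edgeR adjusted p = 0.333 for Glra1 and 0.157 for Arhgap36). Between the divisions, Glra1 had a log2 difference of -1.57 ± 0.30 (SE; edgeR adjusted p = 0.0215) and Arhgap36 a log2 difference of -0.82 ± 0.15 (SE; edgeR adjusted p = 0.0132). The Arhgap36 call was lost without any 1 of the 3 IF libraries (edgeR adjusted p = 0.054 to 0.071) and that of Glra1 without any 1 of GS 1, GS 3, the 3 IF libraries, TA 2 and EDL 3 (edgeR adjusted p = 0.0532 to 0.104).

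By the same rule 2 of the called genes, Sst and Thbs2, were assigned to GS. Thbs2, a secreted thrombospondin, had 9.65, 6.98 and 48.8 CPM in GS and 6.21, 4.0 and 1.45 CPM in IF, against 3.05, 1.44 and 7.56 CPM in TA and at most 0.232 CPM in EDL and PL. TA overlapped IF, the ratio of pooled reads of 9.78 (95% counting interval 7.62 to 12.7; edgeR adjusted p = 0.0224) was called, and the call was lost without any 1 of GS 3, IF 1, IF 2, TA 1, TA 2, EDL 2 and EDL 3 (edgeR adjusted p = 0.0576 to 0.11). Thbs2 also differed between IF and the lateral pools (edgeR unadjusted p = 0.00112). It was not shared because its IF mean of 3.89 CPM lay below the TA mean of 4.02 CPM. The GS minus IF difference of Thbs2 was not called. Pcp4l1, a small calmodulin-binding protein, had a mixed lateral division. It had 299, 307 and 492 CPM in GS and 265, 367 and 287 CPM in IF, far above TA (10.9, 37.9 and 11.6 CPM) and EDL (35.8, 14.6 and 24.3 CPM), but PL had 259, 959 and 425 CPM. The divisions gave a log2 difference of 2.36 ± 0.33 (SE; edgeR adjusted p = 0.00105).

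Markers of other cell types moved with the divisions in part. Of 15 tested oligodendrocyte markers 2 had a difference above 0 and none was called, with a median log2 difference of -1.06. Their summed level was 239 to 716 CPM in medial libraries and 461 to 2525 CPM in lateral libraries. The leading member was Mbp, a myelin protein (edgeR adjusted p = 0.0529), and no listed marker was without a read. Astrocyte markers gave 1 call among 12, Slc1a2, with 3 above 0 and a median of -0.40. Their sum was 1357 to 2130.2 CPM in medial libraries and 2087 to 3844 CPM in lateral libraries. Without Slc1a2 the other 11 summed to 675 to 1228 CPM in medial libraries (median 935) and to 912 to 1676 CPM in lateral ones (median 1226). The part of such cells in the lower levels of Slc1a2, Tnr and Sox6 in medial libraries was not tested.

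Other marker sums overlapped between the divisions, and none of their genes was called. Microglial markers summed to 37.8 to 77.4 CPM in medial libraries and 32.2 to 129 CPM in lateral libraries, with 6 of 9 above 0. Endothelial and pericyte markers summed to 100.3 to 400.1 CPM in medial libraries and 131 to 1738 CPM in lateral libraries, highest in PL, with 4 of 12 above 0. Fibroblast and meninges markers summed to 7.89 to 24.5 CPM in medial libraries and 6.71 to 213 CPM in lateral libraries, with 1 of 4 above 0 and EDL highest; of the 8 listed, Slc6a13 had no read. Spinal interneuron markers summed to 46.8 to 236 CPM in medial libraries and 156 to 376 CPM in lateral libraries, with 3 of 6 tested above 0, and Evx1, Lbx1 and Gata3 had no read. The 12 cholinergic motor neuron markers, which check the captured cells, summed to 31368 to 106210.0 CPM in medial libraries and 40066 to 119210.0 CPM in lateral libraries, with no call and a median of -0.32.

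**Figure D4:**
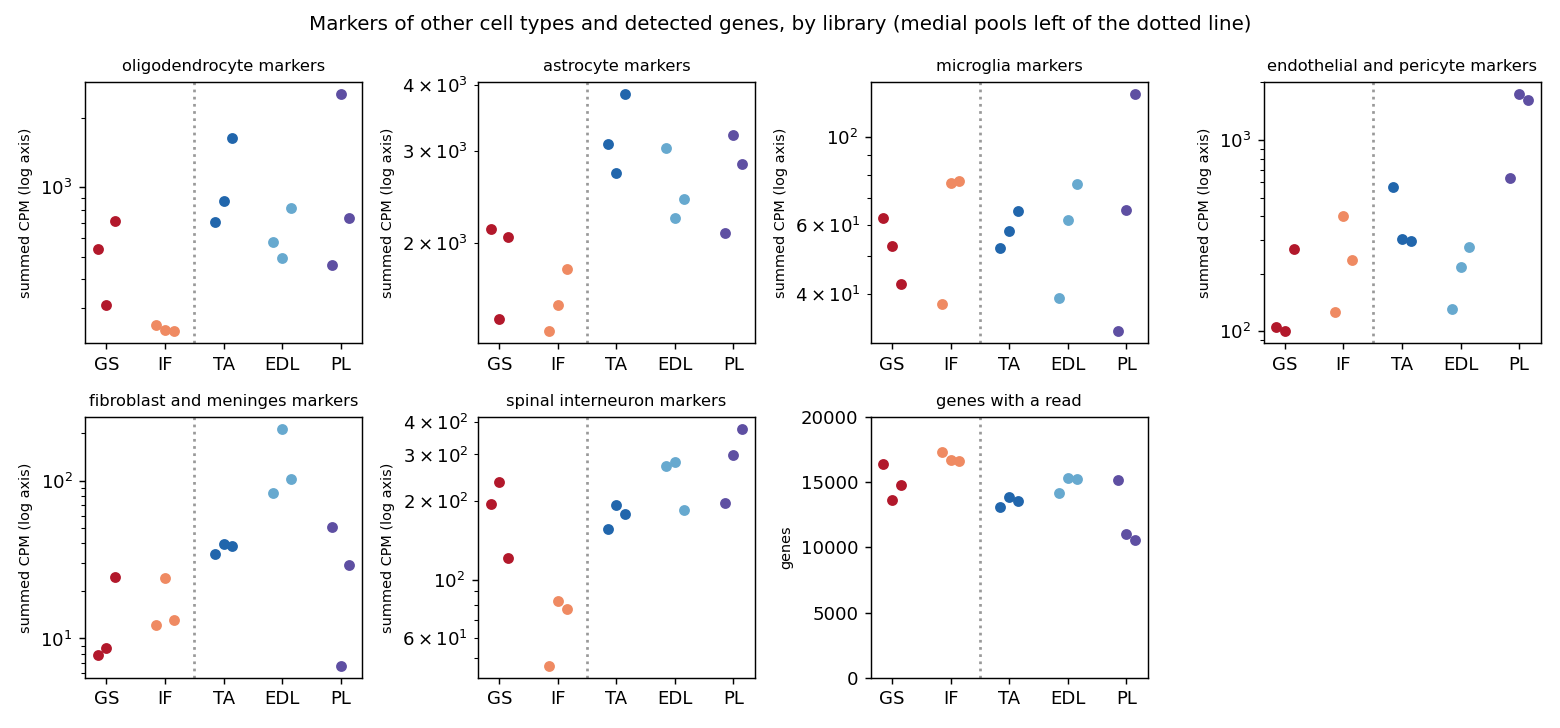
Each point is 1 library, with the medial pools GS and IF left of the dotted line: summed CPM of the tested markers of 6 other cell types (log axes) and, in the last panel, the number of genes with a read. Oligodendrocyte sums in IF lie below all lateral libraries, endothelial sums are highest in PL, and PL 2 and PL 3 have the fewest genes.

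The authors' deposited table for each pair of pools gave a second reading of the same libraries. Of 16 such lists, 8 that set a medial against a lateral pool were read, for GS with TA and for IF with TA, EDL and PL. They held 23 of the 37 shared symbols, in the direction found here in each list, and 14 were in none. GS entered only the lists of GS over TA and of TA over GS, which held 5 and 4 of the shared genes. The other lists set IF alone against a lateral pool, so they say nothing about sharing with GS. Isl1 was in 4 of them in the authors' deposited table, with adjusted p-values of 1.43e-08 for GS over TA, 1.1e-15 for IF over TA, 1.14e-25 for IF over EDL and 9.73e-05 for IF over PL. Alcam was in 3 of the authors' deposited lists, lower in GS than in TA (adjusted p = 0.002206) and lower in IF than in TA (adjusted p = 0.000171) and EDL (adjusted p = 2.32e-09). Lists of GS against EDL and PL were not analysed here.

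**Figure D5:**
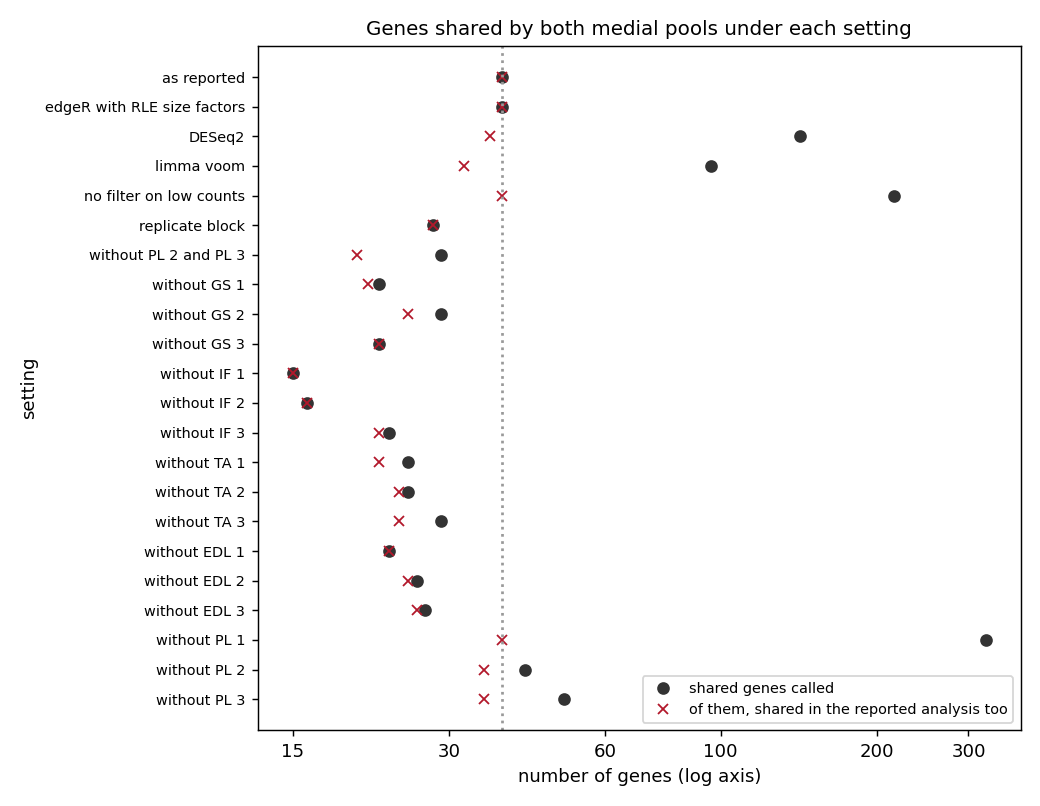
Circles show the number of shared genes called under each setting (log axis) and crosses how many of them were also among the 38 reported (dotted line). Leaving out IF 1 gives 15 genes, leaving out PL 1 gives 324, and the crosses stay between 15 and 38.

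The shared genes differed in how far they depended on single libraries. Of the 31 that were named, 15 kept their call between the divisions whichever library was left out, and 10 kept it under every setting run. These 10 were Isl1, Chrna3, Camk2a and Trpc4, which were higher in both medial pools, and Alcam, Sox6, Scg2, Plxna2, Tnr and Meis2, which were lower. Without PL 2 and PL 3, 20 of the 31 kept their call. These counts for named genes follow only the call between the divisions. Whether each gene still met the rule for sharing was not followed gene by gene. The 15 include Aldh1a2, which was not even within the medial division.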

How the data were processed

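Gene-level read counts came from the authors' deposited table. Per the submitters' processing notes, reads were aligned with Bowtie 0.12.9 to mm9 and compared with DESeq (version not given); for the read counter and its gene models, the name is not given in the sources used here. Per the labels, RNA was amplified with Ovation V2, made into Nextera libraries and read from 1 end. The kit does not mark strand, so overlapping and antisense genes cannot be separated. The deposited adjusted p-values for pairs of pools are the authors', per the file headers. The table's 15 further columns of per-library values were not used. Of 36814 genes, 4 with 16 count cells below 0 in the deposited table were left out, and 16357 had no read.

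From the counts, filterByExpr left 14340 genes, which were scaled by TMM and fitted with 1 coefficient per pool in edgeR 4.0.16 (R 4.3.3, limma 3.58.1) by quasi-likelihood, with Benjamini-Hochberg adjustment over all of them. The common dispersion was 0.789. SE is the absolute log2 difference over the square root of the test's F. For a gene with no read in some pool the fitted fold is not given. The ratio of pooled reads with its 95% interval stands in its place, which like every interval here covers counting error only. The code was tested on simulated counts.

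Members, lists and pool divisions were chosen with earlier results of these data known. The genes named were Isl1, Lhx1, Chrna3, Camk2a, Alcam and Sox6; up to 15 shared genes per direction by p, those separated in every library first; up to 6 carried by each medial pool and 4 mixed ones; and from each of 25 lists up to 4 called members, or the 2 with the smallest p. Clones were not named, and some items are not reported here. Genes outside these rules are said to be so in the text. Alternatives were RLE scaling, DESeq2 1.42.0, limma voom, no filter, the replicate number as a block, 1 coefficient per division, and libraries left out.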

Additional observations from a re-analysis of the deposited data

Results flagged for a closer look

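The medial and the lateral libraries were examined for 82 genes, those of the naming rule and every other called gene, and for total counts and genes with a read. Of 167 such groups whose values were not all equal, 45 held 1 library that stood far from the rest by Dixon's criterion at the 95% level. The criterion marks about 1 in 20 groups when values are normal and come from 1 population. These groups mix pools and hold skewed CPM, and a library that alone exceeds 0 CPM is always marked. The 45 therefore cannot be set against that rate. Each value is given beside that of the nearest library of the same division.

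Among the 6 medial libraries, IF 3 was the highest for Lhx1 (2.17 against 0.713 CPM). GS 2 was the highest for Camk2a (163 against 73.9 CPM), Drd1a (23.3 against 4.08 CPM), Ankrd45 (33.2 against 8.33 CPM), Ces2g (43.1 against 5.79 CPM), Tnr (77.6 against 42.2 CPM) and Ephb1 (118 against 17.1 CPM). IF 1 was the highest for Myo5b (36.4 against 15.3 CPM). GS 3 was the highest for Plxna2 (139 against 59.8 CPM), Thbs2 (48.8 against 9.65 CPM), Plch1 (369 against 149 CPM), Slc5a7 (1427 against 875 CPM) and BC057022 (70.4 against 12.7 CPM). IF 2 was the highest for Dcn (10.2 against 3.26 CPM). GS 1 was the lowest for Cdh12 (138 against 296 CPM). GS 2 was the lowest for Stxbp6 (20.8 against 56.5 CPM).

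Among the 9 lateral libraries, EDL 2 was the highest for Isl1 (0.566 against 0 CPM) and Dcn (195 against 86.7 CPM). PL 2 was the highest for Lhx1 (361 against 21.8 CPM), Sox6 (492 against 229.9 CPM), Tnr (309.8 against 199 CPM), Cnnm1 (872 against 413 CPM), Pcp4l1 (959 against 425 CPM), Cacng5 (724 against 239.5 CPM), Cdh5 (662 against 15.4 CPM) and Rasgrf1 (993 against 572 CPM). PL 1 was the highest for Chrna3 (3.57 against 0.339 CPM), Gad1 (2.06 against 0.627 CPM) and Myh2 (0.433 against 0 CPM). TA 2 was the highest for Clic6 (0.181 against 0 CPM) and P2ry12 (13.4 against 2.6 CPM). TA 3 was the highest for Drd1a (0.176 against 0 CPM), Igf1 (92.9 against 44.8 CPM), Trhr (336 against 154 CPM), Thbs2 (7.56 against 3.05 CPM), Efnb3 (7.21 against 2.55 CPM) and Plch1 (109 against 55.4 CPM). EDL 3 was the highest for Myo5b (2.13 against 0.325 CPM), Col8a1 (50.9 against 2.78 CPM), Pou3f1 (0.125 against 0 CPM) and Ctss (3.64 against 1.02 CPM). EDL 1 was the highest for Pirt (8.8 against 3.17 CPM) and Ces2g (0.695 against 0.17 CPM). PL 3 was the highest for Pdzrn3 (2099 against 182 CPM) and Slc24a3 (891 against 367 CPM).

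For 8 of these genes the medial pools differed from each other, with edgeR's adjusted p for GS minus IF under 0.05. GS was higher in all 8, with log2 differences of 6.50 for Aldh1a2 (SE 0.51, edgeR adjusted p = 2.10e-06), 2.29 for Sst (SE 0.44, edgeR adjusted p = 0.0393), 3.21 for Nts (SE 0.44, edgeR adjusted p = 0.00201), 2.69 for Calca (SE 0.36, edgeR adjusted p = 0.00185), 4.57 for Hoxc10 (SE 0.56, edgeR adjusted p = 0.00101), 1.94 for Lrrc4c (SE 0.35, edgeR adjusted p = 0.0262), 2.94 for Cacng5 (SE 0.50, edgeR adjusted p = 0.0209) and 2.32 for Rasgrf1 (SE 0.41, edgeR adjusted p = 0.0254). All 3 GS libraries lay above all 3 IF libraries in each.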

How the results depend on the processing

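RLE scaling gave the same 58 calls and 38 shared genes, and 18 calls between GS and IF. DESeq2 called 259 genes (121 higher, 138 lower; 58 kept), 142 of them shared (36 kept), and 73 between GS and IF. limma voom called 145 (115 higher, 30 lower; 51 kept), 96 shared (77 higher, 19 lower; 32 kept), and 33 between GS and IF (4 higher, 29 lower), and moved the median of all genes to a log2 difference of 0.343. Without the filter there were 323, 216 and 76, with all 58 and 38 kept and a median of 0.185. One coefficient per division gave 16 calls, all among the 58, and defines no shared genes. Without PL 2 and PL 3, 45 genes were called (34 kept), 29 were shared (20 kept), and 77 were called between GS and IF. Leaving out 1 library gave 22 to 600 calls, 15 to 324 shared genes and 7 to 39 calls between GS and IF, the highest without PL 1 (410 higher, 190 lower) and, for GS against IF, PL 3. The shared genes moved by over 1.5 times without GS 1, GS 3, IF 1, IF 2, IF 3, TA 1, TA 2, EDL 1 or PL 1, and GS against IF without GS 2, GS 3, IF 1, IF 2, IF 3, PL 2 or PL 3. The cause of these shifts was not tested. None of the 45 named called genes changed direction, and 22 kept their call whichever library was left out.

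With the replicate block, which treats the replicate number as a pairing, there were 46 calls (44 kept), 28 shared genes (28 kept) and 16 calls between GS and IF, and 26 of the 31 named shared genes kept their call. Over 30 pairs of libraries with the same number the correlation of deviations was -0.059 to 0.111, and 1 exceeded 0.1. Over 60 pairs with different numbers it was -0.071 to 0.063, and 0 exceeded 0.1. Such correlations cannot decide whether libraries with the same number shared animals.

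Epha4, which had no call, turned positive at 0.00173 (RLE), 0.00164 (DESeq2), 0.0142 (no filter), 0.0060 (replicate block) and 2.26e-05 (1 coefficient per division), and was positive without any 1 of GS 1, IF 2, IF 3, TA 2, EDL 2, EDL 3 and PL 1; leaving out 1 library gave log2 differences of -0.0713 (PL 3) to 0.122 (TA 2). Ctss, a microglial protease with no call, ran from -0.905 (without GS 1, the only reversal) to 2.92 (without TA 1). Depth limits the genes near 0: 12 shared higher genes and no shared lower gene had a pool without a read.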

Other observations

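Channel and receptor lists held 1 call each. Of 34 sodium, calcium and HCN channel genes, 0 were called higher and 1 lower, Cacng5 (2.94% called), with 13 above 0 and a median log2 difference of -0.33. Of 40 glutamate, GABA and glycine receptor genes, 1 was called lower, Glra1 (2.5% called), with 12 above 0 and a median of -0.28. In both genes every IF library lay below every lateral one.

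Markers of alpha motor neurons, which drive force-producing fibres, gave 1 call among 12, Calca, with a median of -0.14. Markers of gamma motor neurons, which drive the spindle's fibres, gave none among 10, with a median of -0.10. The gamma list's smallest p belonged to Plch1, with 73.8, 149 and 369 CPM in GS, 41.9, 31 and 28.6 CPM in IF and 4.19 to 109 CPM (median 42.2) in lateral libraries (edgeR adjusted p = 0.397). The summed gamma markers were 4151 to 7704 CPM in medial libraries and 4927 to 8549.9 CPM in lateral libraries, and the summed alpha markers 2715 to 7727 CPM in medial libraries and 3529.9 to 8201 CPM in lateral libraries.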
